A study of Mus musculus with 2 samples.

Results

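The genes described here are the subunits of integrins that bind the extracellular matrix in skin: the alpha subunit genes Itga1, Itga2, Itga5, Itga9 and Itgav and the beta subunit genes Itgb1, Itgb3, Itgb5, Itgb6 and Itgb8. They were picked by gene symbol, with earlier results of these data known, and all 10 were found among the 22383 genes of the deposited table. The study sequenced RNA from a pair of puromycin-selected lines made from iHFSC2 cells, which are immortalized stem cells of the mouse hair follicle. Cells of the shcircSmad5 line carry a lentivirus with a hairpin RNA aimed at circSmad5, the circular transcript of Smad5, and the empty vector line received the same lentiviral vector without a hairpin. Puromycin was added on day 4 after infection and the lines were used from day 15. Each group had 1 library, so no difference below has a replicate check or a test, a line with an unrelated hairpin was not part of the comparison, and effects of the hairpin cannot be told apart from differences between separately selected lines.

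An integrin is a pair of membrane proteins, 1 alpha and 1 beta chain, that grips matrix proteins outside the cell and links them to actin inside it. The alpha chain mostly sets the ligand, and a beta chain can serve many alpha partners. The beta 1 chain pairs with the collagen receptors alpha 1 and alpha 2, the fibronectin receptor alpha 5 and the tenascin receptor alpha 9, and the alpha v chain pairs with beta 1, beta 3, beta 5, beta 6 or beta 8 to bind ligands such as fibronectin and vitronectin. In epidermis and hair follicles, integrins of the beta 1 family hold basal and stem cells to the basement membrane, and the alpha v beta 6 and alpha v beta 8 pairs release active TGF-beta from its latent complex.

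The total gene count was 38382081 in the shcircSmad5 library and 39261010 in the empty vector library. Smad5 had 3413 counts in the shcircSmad5 library and 3109 in the empty vector library, a sum of linear and circular transcripts that leaves the knockdown unmeasured. The basal keratinocyte markers Krt5 and Krt14 had 224675 and 226645 counts in the shcircSmad5 library, against 206538 and 162982 in the empty vector library. Trp63, another of the 6 basal markers, had 9449 counts in the shcircSmad5 library and 11857 in the empty vector library. Krt15, which marks both basal cells and the bulge, was the only gene of either list called by the size rule used for the integrin genes, with 79 counts in the shcircSmad5 library and 253 in the empty vector library. Of the hair follicle stem cell markers, Sox9 had 5301 counts in the shcircSmad5 library and 8829 in the empty vector library, while Lhx2 had 5 and 4 and Cd34 had 0 in both, so the label rests on part of its markers. Summed over each list, fibroblast markers reached 66 counts in the shcircSmad5 library and 163 in the empty vector library, and endothelial markers 31 and 119. Pdgfra gave 62 and 161 of the fibroblast counts, and each other gene of that list had at most 2 in either library. In bulk RNA, fewer cells of a type and less RNA per cell cannot be told apart.

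Among the matrix-binding integrin genes, the most abundant subunits differed by less than 2-fold between the lines, and the genes called lower in the shcircSmad5 line were scarce ones. Itga2, Itgb3 and Itgb8 were lower by the size rule, under which the larger count is 20 or more, the libraries differ 2-fold or more, and the 95% counting interval leaves out a ratio of 1. No member was higher by it. That is 3 of the 8 members with enough counts, where the rule called 6.24% of 13596 genes lower and 8.43% higher, and 6.38% of 11605 protein-coding genes lower and 4.61% higher. The rule calls scarce genes more often: 14.8% of protein-coding genes with a larger count under 500 were lower and 13.3% higher, against 3.17% lower and 1.27% higher of those with 500 or more. All 3 members called lower belong to the scarce class, and none of the 5 members of the abundant class was called. The boundary of 500 was chosen after the values were seen.

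**Figure D1:**
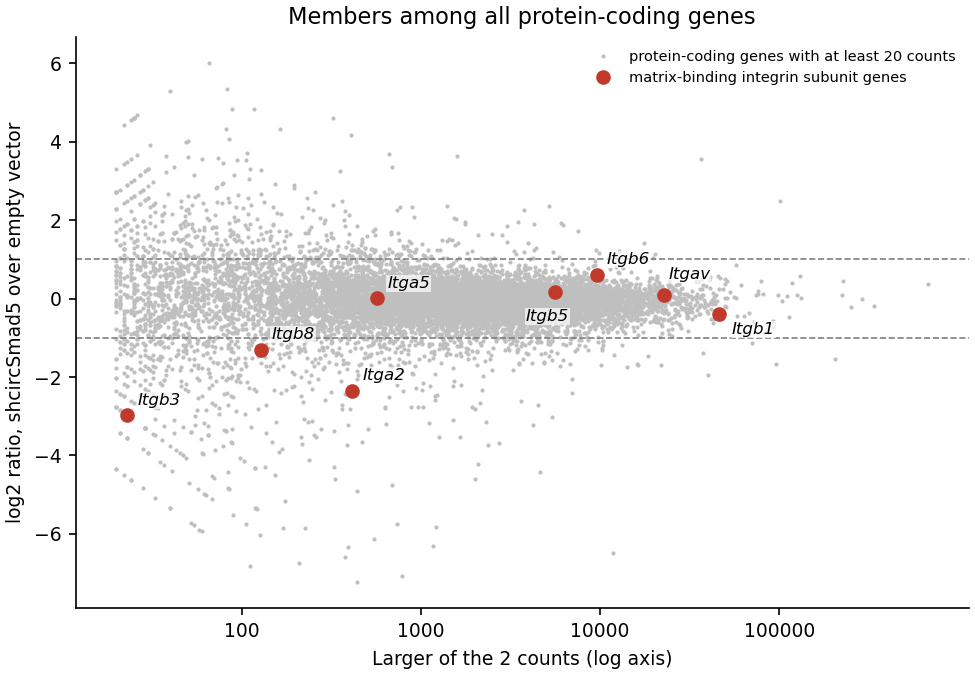
Each grey point is a protein-coding gene whose larger count is at least 20, placed by the larger of its 2 counts (log axis) and its log2 ratio of scaled counts, shcircSmad5 over empty vector; red points are the 8 members with enough counts, and dashed lines mark 2-fold. Itgb3, Itga2 and Itgb8 lie below the lower line at small counts, and the 5 abundant members lie between the lines.

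The promoters of 4 members are shown because these genes span the range of the results: the most abundant subunit gene Itgb1, the genes Itga2 and Itgb8 called lower, and Itgb6, which had the highest ratio of the members. The windows run from 250 bases before to 50 bases after the start site that RefSeq gives on GRCm38.p6, 5′ to 3′ on the gene's strand, and capitals mark matches to 5 motifs searched on both strands. The positions are chr13:114932051-114932350 (minus strand) for Itga2, chr12:119238227-119238526 (minus) for Itgb8, chr2:60722554-60722853 (minus) for Itgb6 and chr8:128685404-128685703 (plus) for Itgb1.
Itga2: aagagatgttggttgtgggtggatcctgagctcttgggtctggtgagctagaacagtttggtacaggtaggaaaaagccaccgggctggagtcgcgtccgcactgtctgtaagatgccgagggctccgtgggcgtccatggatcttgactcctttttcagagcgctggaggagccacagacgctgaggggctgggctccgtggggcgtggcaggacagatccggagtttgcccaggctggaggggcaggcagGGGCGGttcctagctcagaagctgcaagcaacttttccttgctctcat
Itgb8: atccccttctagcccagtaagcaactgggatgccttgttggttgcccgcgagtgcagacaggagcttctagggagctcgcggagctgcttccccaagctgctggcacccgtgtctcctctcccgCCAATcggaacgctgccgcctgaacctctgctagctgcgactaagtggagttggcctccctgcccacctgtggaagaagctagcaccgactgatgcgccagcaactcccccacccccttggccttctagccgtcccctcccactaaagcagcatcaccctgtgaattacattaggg
Itgb6: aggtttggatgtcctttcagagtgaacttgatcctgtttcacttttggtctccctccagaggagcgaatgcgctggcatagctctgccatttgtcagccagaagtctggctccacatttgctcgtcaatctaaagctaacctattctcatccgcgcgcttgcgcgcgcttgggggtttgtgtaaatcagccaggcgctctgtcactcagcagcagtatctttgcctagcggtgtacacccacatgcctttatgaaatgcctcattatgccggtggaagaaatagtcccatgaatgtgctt
Itgb1: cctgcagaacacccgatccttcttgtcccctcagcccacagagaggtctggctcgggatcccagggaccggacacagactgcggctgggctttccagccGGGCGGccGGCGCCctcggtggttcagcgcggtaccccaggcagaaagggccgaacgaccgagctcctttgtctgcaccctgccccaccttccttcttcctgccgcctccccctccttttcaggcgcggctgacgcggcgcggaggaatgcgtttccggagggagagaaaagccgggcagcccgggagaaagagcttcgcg

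The motifs were the GC box GGGCGG, the GC-rich element GGCGCC that BMP-activated Smads can bind, the AP-1 site TGANTCA, the TATA box TATAAA and the CCAAT box CCAAT. Of all 32851 promoter windows in the RefSeq set, 35.7% hold the GC box, 11.9% the GGCGCC element, 7.81% the AP-1 site, 13.6% the TATA letters and 37.4% the CCAAT letters. Itgb1 holds a GC box with its first base at position -151 from the start site and the GGCGCC element at -143, and these matches do not overlap. Itga2 holds a GC box at position 3 after the start, and Itgb8 a CCAAT box at -126. The whole Itgb8 window lies inside the gene as GENCODE places it, whose 5′ end is at 119238802, so the 2 sources differ on its start. The Itgb6 window shown matches none of the 5 motifs. Of the members, 9 were matched to the set, and Itgb3 was not analysed here. Itga5 holds 2 GC boxes, Itgb5 holds 3 and Itgav holds 1. A match is a string of letters in this window and was not tested as a binding site. The Itgb6 window was the poorest in G and C of those shown, with 50.3%, beside 59.3% for Itga2, 60.7% for Itgb8, 67.3% for Itgb1 and a median of 52.7% over all windows.

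Levels per length, given as the deposited FPKM (fragments scaled to the length of all annotated exons of a gene and to the library total), set 4 members far above the others. Itgb1 was the most abundant, with 231 FPKM in the shcircSmad5 library and 288 in the empty vector library. Itgav followed, with 55.2 FPKM in the shcircSmad5 library and 49.98 in the empty vector library. Itgb5 and Itgb6 came next, and Itga5, Itga2, Itgb8 and Itgb3 followed at 3 FPKM or less. This order of the 8 measured members was the same in both libraries. The order of Itgb5 and Itgb6 rests on the division by length. Itgb6 had more counts, 9550 against 5591 in the shcircSmad5 library and 6152 against 4857 in the empty vector library. The counting intervals of neighbours among these 8 did not overlap in either library. Intervals and floors throughout reflect counting error alone, as reads lacking molecular identifiers may be copies of 1 molecule.

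**Figure D2:**
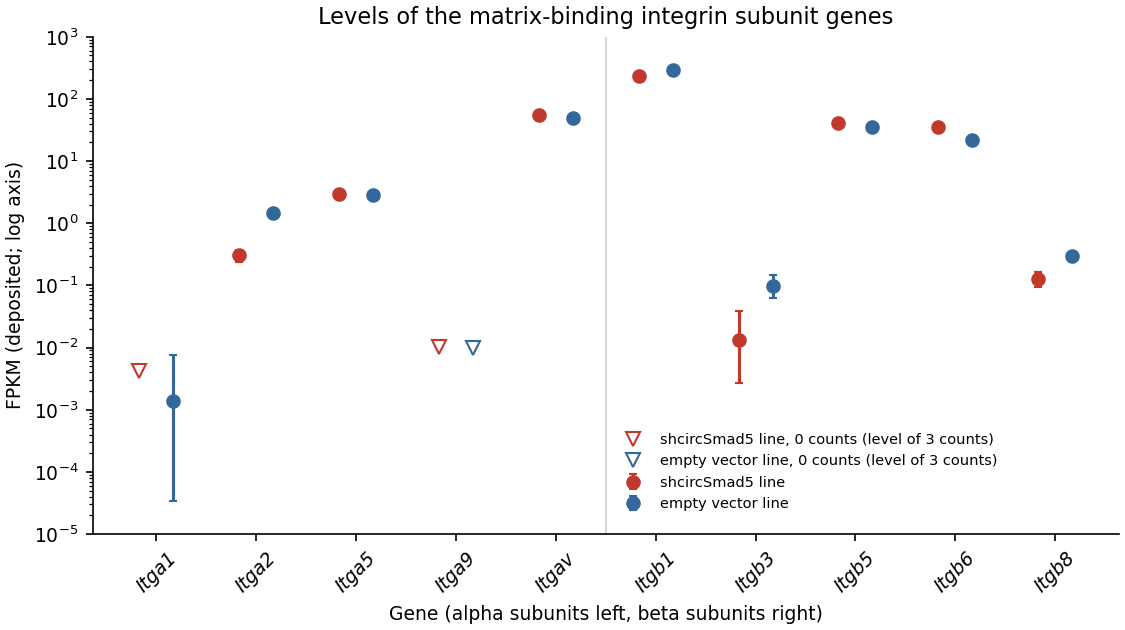
Deposited FPKM of each member (log axis) in the shcircSmad5 line (red) and the empty vector line (blue), with exact Poisson 95% intervals of the count; open triangles stand at the level of 3 counts for members with 0 counts. Itgb1, Itgav, Itgb5 and Itgb6 lie far above the other members in both lines, and Itga2, Itgb3 and Itgb8 are lower in the shcircSmad5 line.

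Of the collagen receptor alpha chains among the members, Itga2 was lower in the shcircSmad5 line and Itga1 was at the limit of detection in both. Outside this set, the collagen receptor chain Itga10 was called higher, with 69 counts (0.347 FPKM) in the shcircSmad5 library and 28 (0.138 FPKM) in the empty vector library. Itga2 (ENSMUSG00000015533, GRCm38 chromosome 13, 114833081 to 114932100, minus strand) encodes the alpha chain of the main collagen receptor of keratinocytes. It had 83 counts (0.303 FPKM) in the shcircSmad5 library and 413 counts (1.47 FPKM) in the empty vector library. After TMM scaling, which sets the libraries level on the bulk of their genes, that is 5.08-fold lower (95% counting interval 4.00 to 6.51), a log2 ratio of -2.34. Itga2 stood at percentile 8.38 of the FPKM of all genes with at least 20 counts in the shcircSmad5 library, and at percentile 28.0 in the empty vector library. Its neighbour Itga1 (chromosome 13, 114953096 to 115101964) had 0 counts in the shcircSmad5 library, which allows up to 0.00420 FPKM at 3 counts, and 1 count in the empty vector library, so no ratio was taken.

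Itga5, whose product pairs with beta 1 as the classical fibronectin receptor (chromosome 15, 103344286 to 103366763), was level between the lines. It had 567 counts (2.99 FPKM) in the shcircSmad5 library and 550 (2.84 FPKM) in the empty vector library, a log2 ratio of 0.01 with a counting interval of -0.16 to 0.19. With the median of its chromosome subtracted, the Itga5 log2 ratio was -0.18. Itga2 therefore stood at 0.101 of the Itga5 level per length in the shcircSmad5 library (0.0794 to 0.128), against 0.519 in the empty vector library (0.456 to 0.591). This ratio within a library does not depend on the scaling between libraries. Itga9, the tenascin receptor chain (chromosome 9, 118606690 to 118901003), had 0 counts in both libraries, which allows up to 0.0102 FPKM in the shcircSmad5 library and 0.00994 in the empty vector library.

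Itgav, the alpha chain shared by the RGD-binding alpha v integrins (chromosome 2, 83724397 to 83806916), was the most abundant alpha member. It had 22743 counts in the shcircSmad5 library and 21084 in the empty vector library, 1.06-fold higher (1.04 to 1.08). A noncoding transcript on the opposite strand covers 5.90% of its exonic bases, and whether the counting used strand is not stated in the labels. Itgav made up 94.4% of the summed FPKM of the 5 alpha members in the shcircSmad5 library and 92.1% in the empty vector library. Itga2 held 0.519% of that sum in the shcircSmad5 library and 2.72% in the empty vector library, and Itga5 held 5.12% and 5.23%.

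Itgb1, which encodes the common beta chain of the collagen, fibronectin and laminin receptors (ENSMUSG00000025809, chromosome 8, 128685654 to 128733200), had the largest difference in level of the members. It had 36127 counts in the shcircSmad5 library and 46132 in the empty vector library, which is 1.30-fold lower (1.29 to 1.32) and did not pass the size rule. At percentile 99.2 of FPKM in the shcircSmad5 library and 99.4 in the empty vector library, it stayed among the highest transcripts of the cells. The 12 alpha chains known to pair with beta 1, most of whose level comes from Itga3, Itga6 and Itgav, summed to 313 FPKM in the shcircSmad5 library and 324 in the empty vector library. Itgb1 thus had 0.736 of the level of these alpha chains in the shcircSmad5 library, against 0.890 in the empty vector library, a comparison of transcripts and not of assembled pairs. Alpha v and alpha 6 also pair with other beta chains.

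Of the beta chains other than beta 1 that pair with alpha v, Itgb5 and Itgb6 were abundant and higher by less than 2-fold, and Itgb3 and Itgb8 were scarce and lower. Itgb6, the epithelial beta chain whose pair with alpha v activates latent TGF-beta (chromosome 2, 60598292 to 60722643), had 9550 counts (35.0 FPKM) in the shcircSmad5 library and 6152 (22.0 FPKM) in the empty vector library. This is 1.52-fold higher (1.47 to 1.57), which did not pass the limit of 2-fold. Itgb5, the beta chain of a vitronectin receptor (chromosome 16, 33829665 to 33949338), had 5591 counts (41.0 FPKM) in the shcircSmad5 library and 4857 (34.8 FPKM) in the empty vector library, 1.13-fold higher (1.08 to 1.17). Per length, Itgb6 had 0.853 of the Itgb5 level in the shcircSmad5 library (0.826 to 0.882) and 0.633 in the empty vector library (0.609 to 0.657), and these intervals do not overlap. Against Itgav, Itgb6 had 0.634 of its level in the shcircSmad5 library (0.619 to 0.650) and 0.441 in the empty vector library (0.428 to 0.454).

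Itgb8, the other beta chain whose pair with alpha v activates latent TGF-beta (chromosome 12, 119158022 to 119238802), had 53 counts (0.125 FPKM) in the shcircSmad5 library and 128 (0.295 FPKM) in the empty vector library. It was 2.47-fold lower, with a counting interval of 1.78 to 3.46 that reaches below the 2-fold limit. Itgb3, best known from platelets, osteoclasts and angiogenic endothelium (chromosome 11, 104608000 to 104670476), had 3 counts in the shcircSmad5 library and 23 in the empty vector library, 7.83-fold lower with a wide counting interval of 2.36 to 40.7. Of 4 endothelial markers in the table, Pecam1 (27 counts in the shcircSmad5 library and 81 in the empty vector library) and Kdr (4 and 33) were lower by the size rule, Tek had 0 and 5 counts, and Cdh5 had 0 in both. Pecam1 and Kdr had larger counts under 500, where the rule called 14.8% of protein-coding genes lower and 13.3% higher. The part of the endothelial markers in the Itgb3 value was not tested. On the scale of log2(FPKM + 1), which compresses scarce genes, the differences of Itga2, Itgb8 and Itgb3 were -0.93, -0.20 and -0.12.

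**Figure D3:**
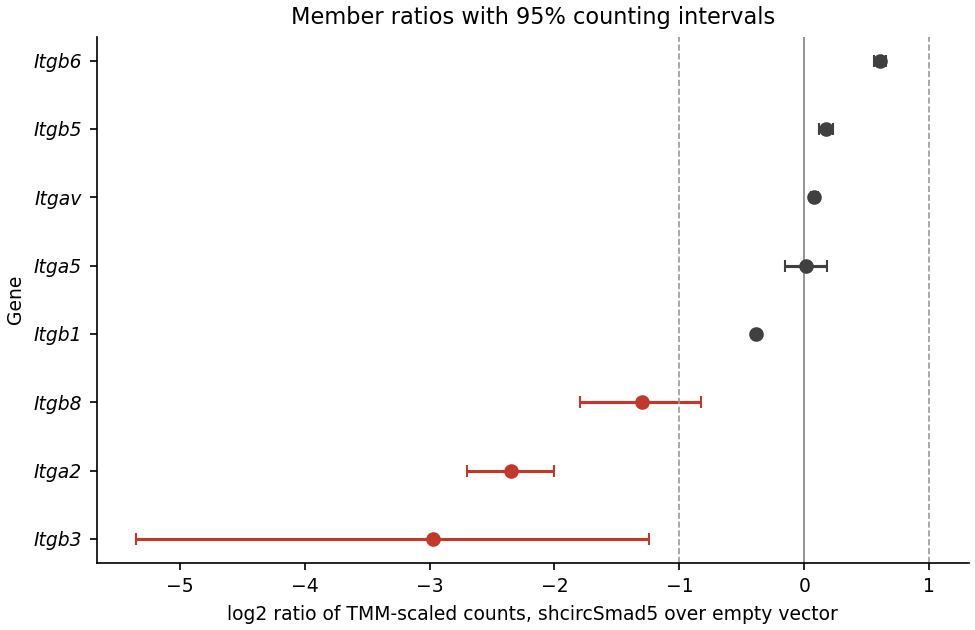
Log2 ratio of TMM-scaled counts, shcircSmad5 over empty vector, for the 8 members with at least 20 counts, with exact 95% counting intervals; dashed lines mark 2-fold, and red marks the members lower by the size rule. Itgb3, Itga2 and Itgb8 lie below the lower line, at -2.97, -2.34 and -1.30, and Itgb6 is the highest at 0.60.

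As a make-up of the transcripts of the 5 beta members, the shcircSmad5 library held a smaller share of Itgb1 and larger shares of Itgb5 and Itgb6. Outside this sum, Itgb4 had 86.0 FPKM in the shcircSmad5 library and 85.6 in the empty vector library, and Itgb7 had 59.8 and 63.6. Itgb1 took 75.2% of the summed FPKM of the 5 beta members in the shcircSmad5 library (approximate 95% counting interval 74.8 to 75.6) and 83.4% in the empty vector library (83.1 to 83.7). Itgb6 took 11.4% in the shcircSmad5 library (11.2 to 11.6) and 6.38% in the empty vector library (6.23 to 6.54), and Itgb5 took 13.4% and 10.1%. Among the partners of alpha v other than beta 1, Itgb6 held 46.0% in the shcircSmad5 library and 38.5% in the empty vector library, while Itgb3 and Itgb8 together stayed under 1% in both. Without division by length, Itgb6 took 18.6% of the summed beta counts in the shcircSmad5 library and 10.7% in the empty vector library.

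Over the 8 members with at least 20 counts, 4 ratios were above 1 and 4 below, and the median log2 ratio was -0.18, beside -0.02 over all 13596 genes and -0.05 over protein-coding genes. With a minimum of 100 counts, which leaves out Itgb3, the median of the members was 0.01. The members held 47.6% of the summed FPKM of all integrin subunit genes in the shcircSmad5 library and 48.8% in the empty vector library.

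Among the integrin subunits outside this set, scarce chains were called in both directions and no abundant chain was called. Of 14 such genes in the table, 9 had at least 20 counts, of which 2 were higher and 2 lower by the size rule (median -0.15). All 4 had larger counts under 500, where the rule called 14.8% of protein-coding genes lower and 13.3% higher. Itga8, whose product binds nephronectin, a basement membrane protein of the hair follicle bulge, had 53 counts in the shcircSmad5 library and 364 in the empty vector library, 7.01-fold lower (5.25 to 9.54), and the muscle laminin receptor chain Itga7 had 6 and 20. Itga10, a collagen receptor chain of cartilage, was 2.41-fold higher (69 counts in the shcircSmad5 library and 28 in the empty vector library). The leukocyte chain Itgb2 had 23 counts and 0, which is 7.51-fold higher with the 0 set to the floor of 3 counts. Its counting interval starts at 5.63-fold. Of the 4 leukocyte markers in the table, the Itgb2 partner chain Itgam had 0 counts in both libraries. Csf1r was lower by the size rule, with 8 counts in the shcircSmad5 library and 36 in the empty vector library. Cd3e had 0 and 8. The 4 markers together had 233 counts in the shcircSmad5 library and 293 in the empty vector library, most of them from Cd68. The part of these markers in the Itgb2 value was not tested. The laminin receptor chains Itga3, Itga6 and Itgb4, named after their values were seen, had log2 ratios of 0.10, -0.53 and -0.06.

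Several matrix ligands of these receptors were lower in the shcircSmad5 line. Of 14 measured ligands of alpha v, alpha 5, alpha 8 and alpha 9 integrins, 5 were lower and 1 was higher, with a median of -0.38. Over all 13596 genes the rule called 6.24% lower and 8.43% higher, but the ligand list was chosen with earlier results of these data known. Of the 5 lower ligands, Thbs2 and Fn1 reached 500 counts only in the empty vector library. The tenascin gene Tnc, a ligand of alpha 9 and alpha v integrins, had 602 counts (2.02 FPKM) in the shcircSmad5 library and 3619 (11.9 FPKM) in the empty vector library. The matricellular genes Ccn2 and Thbs2 had 96.4 and 0.346 FPKM in the shcircSmad5 library, against 356 and 2.28 FPKM in the empty vector library. Tgfbi, an RGD-bearing matrix protein, had 4.498 FPKM in the shcircSmad5 library and 11.2 in the empty vector library, and the fibronectin gene Fn1, named after its value was seen, had 71 counts and 641. Npnt, which encodes nephronectin, had 31 counts in the shcircSmad5 library and 12 in the empty vector library and was the gene called higher.

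Of 7 measured collagen genes, 2 were lower and none was higher (median -0.27, and -0.026 with a minimum of 100 counts or with none). Over protein-coding genes the rule called 6.38% lower and 4.61% higher. The basement membrane collagen gene Col4a5 had 1583 counts (6.14 FPKM) in the shcircSmad5 library and 4860 (18.4 FPKM) in the empty vector library, and Col6a3 had 2 counts and 30. The fibrillar collagen genes Col1a1, Col1a2 and Col3a1, main ligands of alpha 2 beta 1 in dermis, had at most 2 counts in either library. Of 6 measured genes of latent TGF-beta and its binding proteins, Tgfb2 alone was lower, and the list's median was -0.41. Tgfb2 had 9 counts in the shcircSmad5 library and 37 in the empty vector library. Tgfb1, the most abundant of the list per length and named after its value was seen, had 16.8 FPKM in the shcircSmad5 library and 21.8 in the empty vector library.

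Inside the cell, most genes that switch on integrins or carry their signal did not pass the size rule. Of 37 measured activators and adaptors, 1 was higher, 1 was lower and 35 were neither (median -0.08), and both called genes encode kindlins, which bind beta tails. Over protein-coding genes the rule called 6.38% lower and 4.61% higher, so most genes of any kind did not pass it. Fermt2, the kindlin of many adherent cell types, had 16 counts in the shcircSmad5 library and 83 in the empty vector library, 5.30-fold lower (3.08 to 9.69). Fermt3, the kindlin of blood cells, had 99 counts in the shcircSmad5 library and 43 in the empty vector library, 2.26-fold higher (1.56 to 3.31). Fermt1, the kindlin of epidermis, named after its value was seen, had 2473 counts in the shcircSmad5 library and 2965 in the empty vector library, with a log2 ratio of -0.29. None of 14 tetraspanins and other membrane partners passed the rule (median -0.08), and 9 of them had log2 ratios below 0. Those with the most counts, Sdc1, Cav1 and Slc3a2, had log2 ratios of 0.52, 0.35 and 0.19, and Cd9 and Bsg, named after their values were seen, had -0.02 and -0.07.

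**Figure D4:**
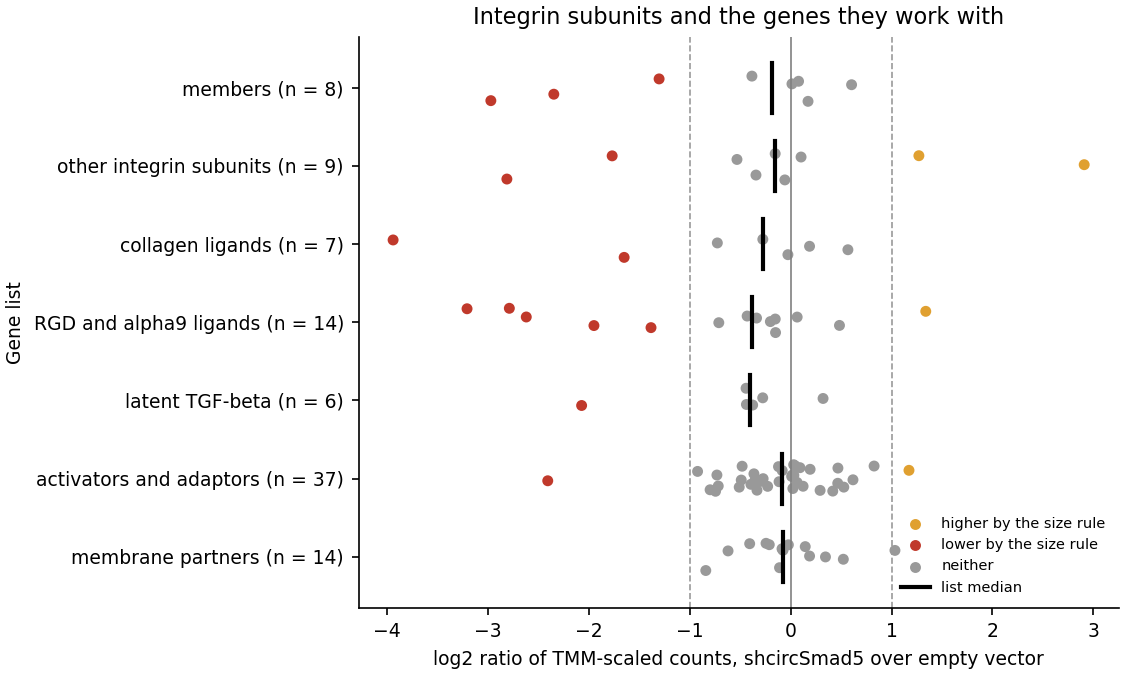
Each point is a gene with at least 20 counts, placed by its log2 ratio of scaled counts, shcircSmad5 over empty vector, in the row of its list; black bars are list medians and dashed lines mark 2-fold. Every list except the membrane partners has 1 or more points below the lower line. The rule called 35 of 37 activators and adaptors and all 14 membrane partners neither higher nor lower.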

How the data were processed

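RNA of 2 libraries was analysed, 1 from the shcircSmad5 line and 1 from the empty vector line, prepared per the labels' protocols from 3 µg of total RNA by ribosomal RNA removal and a directional kit. The authors deposited a whole-number read count and an FPKM value per gene and library, per the file headers. GRCm38, GRCh38, HTSeq 0.13.5 and HISAT2 appear in the submitters' processing notes. Alignment settings, annotation and strand setting were not given in the sources used here. All deposited FPKM values equal counts over total and length: the implied length was whole within 0.001 bases for 100% of genes, and equalled that of GENCODE M21 for all members with a count. Value columns left unmatched to a library numbered 0.

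TMM factors came from edgeR 4.0.16 (R 4.3.3), and each ratio divides the scaled shcircSmad5 count by that of the empty vector library. Its interval is the exact Clopper-Pearson 95% interval of how the counts split, from scipy 1.17.1. Intervals of FPKM shares use Poisson variances of the counts. A floor of 3 counts replaced a count of 0, and no ratio was taken where both counts were at or under it. With 1 library per group no test was possible, so genes were called by size. The size rule was tested on simulated data. These held counting error alone, so that test does not cover spread between lines or cultures. All members are named. From each other list up to 4 called genes with the most counts are named, or up to 3 genes where none was called. The members and lists were chosen with earlier results of these data known. Other scalings, DESeq2 1.42.0 size factors among them, were tried. Gene positions come from GENCODE M21 on GRCm38, where 22319 gene IDs were found and 64 were not. Promoters come from RefSeq on GRCm38.p6.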

Additional observations from a re-analysis of the deposited data

How the results depend on the processing

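All 8 members with a ratio kept their sign under the 9 alternatives, except Itga5, which was -0.18 with each chromosome centred. The count of members called lower was 3 under every scaling and 2 with a minimum of 100 counts or a limit of 3-fold, and 1 member (Itgb6) was called higher at a limit of 1.5-fold. With log2(FPKM + 0.1), the differences of Itga2, Itgb3 and Itgb8 were -1.97, -0.82 and -0.81, and with log2(FPKM + 1) they were -0.93, -0.12 and -0.20, since a pseudocount compresses scarce genes by construction. Over all genes, 439 were higher and 463 lower with a minimum of 100 counts, 1892 and 1753 at 1.5-fold, and 591 and 422 at 3-fold. The median of the members was -0.12 with total counts, -0.12 with upper quartile scaling, -0.11 with totals without the top 20 and mitochondrial genes, -0.12 with log2(FPKM + 0.1), -0.030 with log2(FPKM + 1) and 0.014 at 100 counts or more. The median of the other integrin subunits was -0.35 with chromosomes centred, -0.24 with no minimum and -0.25 with a minimum of 100 counts. That of the alpha v, alpha 5 and alpha 9 ligands was -0.32 with total counts, -0.32 with upper quartile scaling, -0.31 with reduced totals and -0.71 with a minimum of 100 counts. That of the collagen genes was -0.14 with chromosomes centred and -0.026 with no minimum or with a minimum of 100 counts. That of the latent TGF-beta genes was -0.25 with chromosomes centred. That of the activators and adaptors was -0.020 with total counts, -0.018 with upper quartile scaling, -0.0059 with reduced totals and -0.034 with TMM on protein-coding genes, and that of the membrane partners was -0.0028 with reduced totals. The shifts between library scalings come from a common factor, which moves every ratio alike. Those with chromosomes centred, a count minimum or a pseudocount do not. Without division by length, the shares of the beta sum in the shcircSmad5 library were 70.4% for Itgb1, 10.9% for Itgb5, 18.6% for Itgb6 and 0.103% for Itgb8, and in the empty vector library 80.5%, 8.48%, 10.7% and 0.223%. Those of the alpha sum were 0.355% for Itga2, 2.42% for Itga5 and 97.2% for Itgav in the shcircSmad5 library, and 1.87%, 2.49% and 95.6% in the empty vector library. No paired analysis was possible because each group has 1 library. Depth limits the values of Itgb3, Itga1 and Itga9, which had at most 23 counts in either library, and no value here measures how far cultures of 1 line differ.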

Other observations

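The neighbours of Itgb3 and Itgb8 had medians above 0, while all 5 measured neighbours of Itga2 had ratios below 1; this look at neighbours was chosen after the values were seen. Within 1 Mb of Itgb3, none of 10 measured genes was called, and their median log2 ratio was 0.25. Within 1 Mb of Itgb8, none of 3 was called, with a median of 0.28. Within 1 Mb of Itga2, 1 of 5 was lower, the activin antagonist gene Fst with 3505 counts in the shcircSmad5 library and 8555 in the empty vector library, and the median was -0.30. Around Itgb6, none of 8 was called and the median was -0.25. Around Itgav 2 of 9 were lower, around Itga9 1 of 13 was lower, and around Itgb5 2 of 13 were higher. Around Itga1, 2 of 5 were lower, Itga2 itself and Fst. None was called of 16 around Itga5 and of 3 around Itgb1. For comparison, the rule called 6.24% of all 13596 genes lower and 8.43% higher. With the median of its own chromosome subtracted, the log2 ratio was -2.14 for Itga2, -3.06 for Itgb3, -1.38 for Itgb8 and 0.77 for Itgb6.

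Markers of other cell types were called on small counts: Pf4 alone was higher, and Pdgfra, Pecam1, Kdr and Csf1r were lower. All had larger counts under 500, where the rule called 14.8% of protein-coding genes lower and 13.3% higher. Csf1r, a macrophage receptor gene, had 8 counts in the shcircSmad5 library and 36 in the empty vector library. The fibroblast receptor gene Pdgfra had 62 counts in the shcircSmad5 library and 161 in the empty vector library. Pf4, a platelet chemokine gene, had 30 counts in the shcircSmad5 library and 0 in the empty vector library, while the platelet integrin chain Itga2b had 124 and 154. None of the 3 melanocyte markers in the table was called, and Mitf had 426 counts in the shcircSmad5 library and 829 in the empty vector library.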
